A study of Mus musculus with 4 samples.

Results

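The respiratory chain and the ATP synthase turn the electrons of NADH and succinate into ATP in the inner mitochondrial membrane. Complexes I and II pass electrons to ubiquinone, complex III passes them on to cytochrome c, and complex IV hands them to oxygen. Complexes I, III and IV pump protons as they do so, and the protons flow back through complex V, the ATP synthase. Complex II is built from nuclear genes alone, whereas the other complexes combine many nuclear-encoded subunits with a few proteins that the mitochondrial genome encodes. Lymphocytes draw on this system at rest and use it beside glycolysis once they are stimulated.

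The genes described here were taken by name from both deposited joint tables of expression values. Names had to start with Nduf, Sdha to Sdhd, Uqcr, Cox4 to Cox8, Atp5 or the prefixes of the mitochondrial protein genes, and pseudogene names were left out. This gave 98 genes of 9596 rows with a name in both tables. They comprised 75 nuclear-encoded structural subunits, 11 assembly factors and 12 mitochondrially encoded subunits. The structural subunits were 36 of complex I, 4 of complex II, 8 of complex III, 13 of complex IV and 14 of complex V. Ndufa4 was counted with complex IV, to which its protein is now assigned, as was Cox7a2l, whose protein joins complexes III and IV into supercomplexes. Cyc1, a complex III subunit, is named outside the rule and is described apart from the 98 genes.

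The study sorted ILC3s, the innate lymphocytes of group 3 that make IL-22, from the small intestine of mice at steady state. The gate took live cells low for CD45, negative for CD3 and high for CD90.2. One pair of libraries held ILC3s of Il17d-KO mice (IL-17D KO) and of wild-type mice (WT). The other pair held CD93-positive and CD93-negative cells, both sorted from WT mice. The labels give a 12 h culture without stimulation ahead of the CD93 sort for every library, and do not say whether the KO and WT cells were cultured as well. They give no age, sex or number of mice, and not how the Il17d allele was made. Il17d itself was not analysed here, so the knockout label rests on the submitters' word. There was 1 library per group, so no difference below has a replicate check or a p-value, and every "higher" or "lower" compares those libraries. In bulk RNA, fewer cells of a type and less RNA per cell cannot be told apart.

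Values are FPKM, fragments per kilobase of gene scaled to library size, as the authors deposited them, and differences are of log2(FPKM + 1), KO minus WT or CD93-positive minus CD93-negative. Reads per gene were recovered from the steps of the FPKM values for part of the rows. They came to 20864872 reads in the KO library and 21619344 in the WT library, and to 11408132 reads in the CD93-positive and 10742755 in the CD93-negative library. The library totals that the steps imply were 27002581 in KO and 26087274 in WT, and 11712846 in CD93-positive and 11790580 in CD93-negative cells. The recovered reads are thus not library sizes, and their part of the total differed between libraries. A gene counted as measured if it reached 1 FPKM in either library of its pair. Over all measured genes the median difference was 0.01 in the KO and WT pair and 0.04 in the CD93 pair. All 10 of the ILC3 markers examined were present in all 4 libraries, among them Il23r, the receptor chain for IL-23, at 243 FPKM in KO and 258 in WT, and at 47.1 in CD93-positive and 42.7 in CD93-negative cells. Rows at 0 were common in the KO and WT pair, with 1276 of 15242 in KO and 1183 in WT, whereas the CD93 table of 12546 rows had 57 in CD93-positive and 2 in CD93-negative cells.

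Mitochondrial genes can be hard to count, because stretches of the mitochondrial genome also lie in nuclear chromosomes. The pair of stretches that follows shows how close such a copy is. The first is the start of mt-Nd3 at chrM:9459-9511 on the plus strand, and the second is the matching stretch of the pseudogene Gm28438 at chr1:24613067-24613119 on the minus strand, both from the GRCm38 transcripts of GENCODE M21.
mt-Nd3: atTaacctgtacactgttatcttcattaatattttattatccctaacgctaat
Gm28438: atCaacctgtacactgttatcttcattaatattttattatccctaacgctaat
The capital marks the 1 base that differed over the 345 aligned bases, T3C, counted from 1 at the first base of mt-Nd3. A read of 50 bases could tell both apart only if it covered this base. The next stretch crosses the end of such a match inside mt-Nd4, at chrM:10983-11102 on the plus strand. The 60 bases in capitals are the last that mt-Nd4 shares with the pseudogene Gm28439 on chromosome 1, and the 60 bases in lower case lie beyond the match.
mt-Nd4: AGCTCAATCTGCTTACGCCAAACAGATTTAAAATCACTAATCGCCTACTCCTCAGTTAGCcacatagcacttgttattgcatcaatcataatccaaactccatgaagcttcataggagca
Of all 50-base windows, those that also occur in another annotated gene made up 100% for mt-Co2, 99.9% for mt-Co3, 99.5% for mt-Atp6, 98.8% for mt-Nd4l and 97.99% for mt-Nd3. These 5 genes follow each other in the mitochondrial genome, with mt-Atp8 and transfer RNA genes among them. The share was 62.2% for mt-Nd4, 51.1% for mt-Co1 and 8.19% or less for mt-Nd1, mt-Nd2, mt-Nd5, mt-Nd6 and mt-Cytb.

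The nuclear subunits are spread over many chromosomes, and their promoters share short binding motifs. RefSeq promoters of 300 bases, of which 250 precede the annotated start, were matched by symbol for 74 of the 86 nuclear-encoded genes. The letters GCGCATGC, on either strand, are the core of the motif of NRF1, a transcription factor that controls many respiratory genes. They occurred in 12 of these 74 promoters (16.2%) and in 631 of 17492 promoters of all protein-coding genes (3.61%). The 3 stretches that follow hold the motif at least 10 bases upstream of the start of a subunit gene. They are shown because, of such genes, these 3 had the highest difference between CD93-positive and CD93-negative cells; that choice used the differences, so the motif is not set against them. They are from GRCm38.p6 and read along the gene, with the motif in capitals. Ndufa11, of complex I, is shown at chr17:56717657-56717754 on the plus strand. Cox6a1, of complex IV, is shown at chr5:115349068-115349165 and Atp5k, of complex V, at chr5:108434400-108434494, both on the minus strand.
Ndufa11 promoter: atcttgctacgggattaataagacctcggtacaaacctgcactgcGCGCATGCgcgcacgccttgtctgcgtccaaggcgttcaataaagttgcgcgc
Cox6a1 promoter: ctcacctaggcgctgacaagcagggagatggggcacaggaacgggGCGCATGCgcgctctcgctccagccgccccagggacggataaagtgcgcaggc
Atp5k promoter: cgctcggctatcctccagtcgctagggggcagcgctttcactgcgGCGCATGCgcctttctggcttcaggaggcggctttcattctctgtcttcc
In these 3 promoters the motif on the other strand overlaps the one in capitals, since the letters and their reverse complement share GCATGC. The ETS-type letters CCGGAAG, on either strand, were found in 25.7% of the members' promoters and 11.9% of all promoters. The YY1-type letters AAGATGGCG, on either strand, were found in 8.11% and 1.94%. A match describes the letters and not whether a factor was bound. The transcript of Nrf1 itself was at 3.96 FPKM in KO and 1.63 in WT, and at 4.72 in CD93-positive and 4.39 in CD93-negative cells.

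In IL-17D KO ILC3s most genes of the module sat slightly below WT. The difference was below 0 for 73 of 98 genes, against 49.5% of all 12376 measured genes, and below the median of all genes for 74 of 98. The median was -0.20 for the 75 nuclear structural subunits, -0.38 for the 12 mitochondrially encoded genes and -0.38 for the 11 assembly factors. Scaling to a common sum brought the nuclear median to -0.036 and the mitochondrial one to -0.21, while the median of all genes moved to 0.17. Large differences were uncommon: 6 of 98 genes were at least 2-fold apart in FPKM + 1, the scale on which this limit is applied throughout, against 29.3% of all measured genes in the same pair of libraries. Of these, 2 were higher in KO (16.6% of all genes) and 4 were lower (12.7% of all genes). The remaining 25 genes were above 0 (50.5% of all genes). The medians of the complexes ran from -0.48 in complex III to 0.12 in complex II, as the plot of differences by complex shows.

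**Figure D1:**
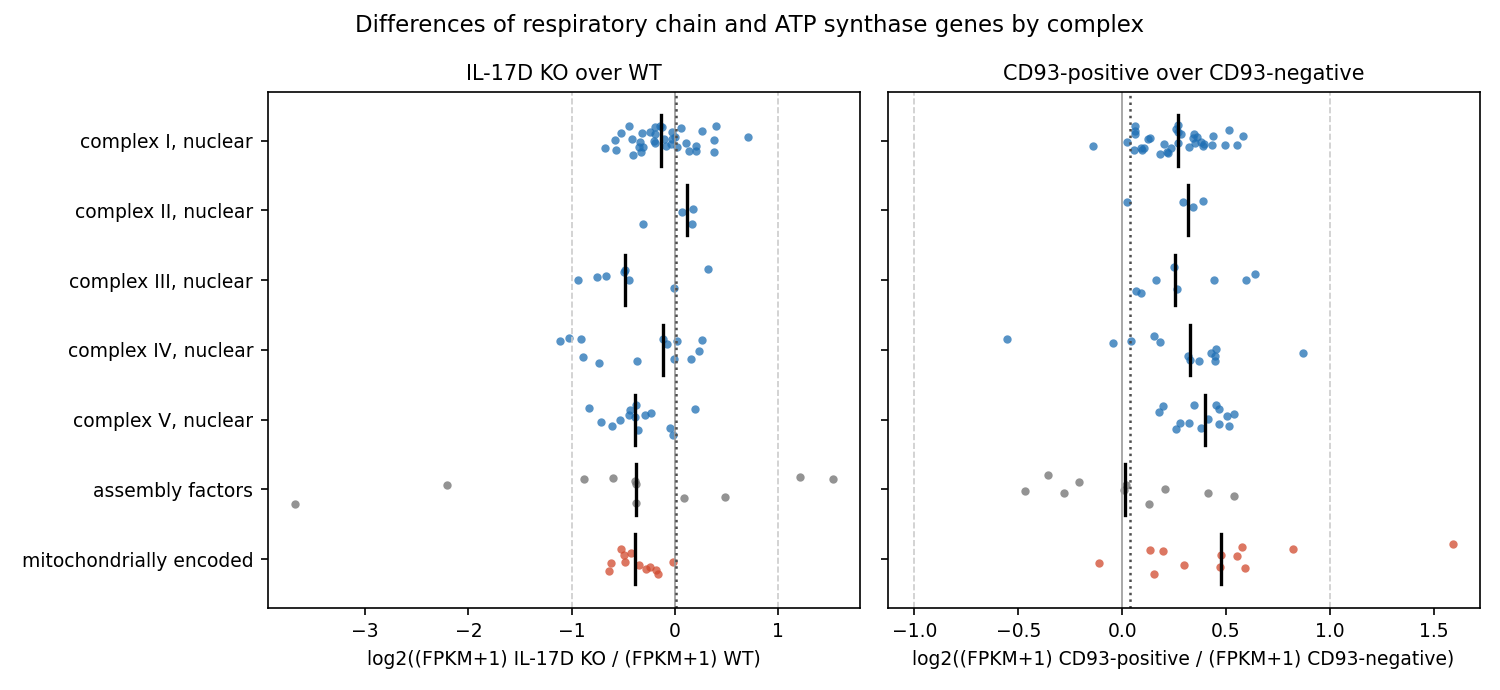
Difference of log2(FPKM + 1) for each of the 98 genes, by complex and genome, with IL-17D KO over WT on the left and CD93-positive over CD93-negative on the right. Each point is 1 gene, the black bar is the median of its row, the dotted line is the median of all measured genes and the dashed lines mark 2-fold. Complex III, complex V and the mitochondrially encoded genes lie mostly left of the dotted line in KO over WT, while in all rows other than the assembly factors most points lie right of it in CD93-positive over CD93-negative.

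Within nuclear-encoded complex I the medians differed by the role of the subunits. The 7 core subunits, which carry the flavin and the iron-sulfur clusters, had a median difference of 0.06 and 5 were above 0. The 29 accessory subunits had a median of -0.19 and 22 were below 0. All 7 core subunits have coding sequences above 423 bases, the median of the nuclear structural subunits, whereas many accessory subunits are shorter. The part of length in the difference between the roles was not tested. Ndufs7, which holds the last iron-sulfur cluster before ubiquinone, had 52.9 FPKM in KO and 31.9 in WT, the highest difference of the complex at 0.71. Its FPKM ratio was 1.66, with a 95% interval of 1.55 to 1.77 from 2452 and 1429 recovered reads; all such intervals cover counting error only. Ndufs1, also a core subunit, had 7.10 FPKM in KO and 5.13 in WT. The core subunit Ndufs3 went the other way, at 9.23 FPKM in KO and 11.8 in WT, but 35.8% of its windows occur elsewhere. Ndufv1, the NADH-binding subunit, had 15.5 FPKM in both libraries.

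Among the accessory subunits of complex I, which surround and stabilise the core, the most abundant were Ndufa2 and Ndufa1. Ndufa2 had 356 FPKM in KO and 406 in WT. Ndufa1 had 277 FPKM in KO and 415 in WT. Both were lower in KO, as were Ndufa8, at 215 FPKM in KO and 308 in WT, and Ndufb6, at 61.8 in KO and 99.3 in WT. Ndufb6, a membrane-arm subunit, had the lowest difference of the complex at -0.68. Ndufb3 was the highest of the accessory subunits, at 31.1 FPKM in KO and 23.6 in WT. Over all 36 nuclear subunits the median of complex I was -0.13, and it turned to 0.04 when both libraries were scaled to a common FPKM sum. Relative to the median of all genes it lay between -0.15 and -0.11 over 8 settings of pseudocount, FPKM minimum and scaling.

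Complex II, the succinate dehydrogenase that also serves the TCA cycle, was slightly above WT. Sdha, the flavoprotein, had 44.0 FPKM in KO and 39.2 in WT. Sdhb, the iron-sulfur subunit, had 153 in KO and 135 in WT, and Sdhc, a membrane anchor, had 12.9 in KO and 12.2 in WT. These 3 genes were slightly higher in KO, while the anchor Sdhd was lower, at 86.2 FPKM in KO and 107 in WT. The median of the 4 genes was 0.12.

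Nuclear-encoded complex III had the lowest median of the 5 complexes, at -0.48, with 7 of 8 subunits below 0. Uqcrh, the hinge protein beside cytochrome c1, had 20.4 FPKM in KO and 39.9 in WT, an FPKM ratio of WT over KO of 1.96 (1.79 to 2.16). Its pseudogene Uqcrh-ps1 had a row of its own, at 25.3 in KO and 44.6 in WT, so the level of Uqcrh is uncertain. Uqcrb, a small subunit near the ubiquinone site, had 34.8 in KO and 59.3 in WT, although 43.2% of its windows recur in other genes. Uqcr10, another small subunit, had 105 in KO and 167 in WT. These 3 subunits were the furthest below WT. The 2 subunits that did not follow were Uqcrc1, a core protein, at 96.6 FPKM in KO and 96.9 in WT, and Uqcr11, the small subunit that was higher, at 20.2 in KO and 15.97 in WT. Uqcrfs1, the Rieske iron-sulfur protein, had 56.3 FPKM in KO and 76.9 in WT. Cyc1, the cytochrome c1 gene outside the rule, was higher, at 30.002 FPKM in KO and 17.01 in WT.

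Complex IV was uneven. Cox6c and Cox7c, small membrane subunits, were the 2 structural subunits at least 2-fold lower in KO. Cox6c had 4.55 FPKM in KO and 10.99 in WT, a WT over KO ratio of 2.42 (2.16 to 2.71) from 438 reads in KO and 1023 in WT. Cox7c had 32.2 FPKM in KO and 66.2 in WT, a ratio of 2.06 (1.91 to 2.23). Cox7c has a near-identical processed pseudogene, Gm10012, on chromosome 17, so its level is uncertain. Cox7b had 16.3 FPKM in KO and 31.4 in WT, and Ndufa4 had 13.4 in KO and 25.7 in WT. Both were just short of the 2-fold limit. The most abundant subunits differed in direction. Cox6a1 had 213 FPKM in KO and 210.0 in WT. Cox8a had 226 in KO and 191 in WT. Cox6b1, at 146 FPKM in both, was level. Cox4i1, the ubiquitous form of the largest nuclear subunit, was lower in KO, at 133 in KO and 171 in WT. The isoforms of Cox7a differed among themselves. Cox7a2, the widely expressed form, had 36.2 FPKM in KO and 61.1 in WT, whereas Cox7a1, the form known from heart and muscle, had 8.65 in KO and 7.67 in WT. The median of the 13 genes was -0.11 and turned to 0.06 with a common sum.

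Complex V was lower in 13 of 14 nuclear genes, with a median of -0.38. All 9 counted genes of the membrane part and stalk were below 0 (median -0.39), as were 4 of the 5 genes of the catalytic head (median -0.23). Nuclear Atp5 names found in this table only are not among the 14. Of these, Atp5f1, the stalk subunit b named Atp5pb in the CD93 pair, was above 0, at 8.65 FPKM in KO and 6.99 in WT. Atp5s was below 0, as was Atp5sl, an older name of the complex I assembly gene Dmac2. Atp5b, the catalytic beta subunit, had 38.7 FPKM in KO and 52.8 in WT, while Atp5a1, the alpha subunit beside it, had 92.4 in KO and 93.2 in WT. Atp5d, the delta subunit of the central stalk, was the exception above 0 among the 14, at 22.6 in KO and 19.6 in WT. Atp5e, the epsilon subunit, had 19.4 FPKM in KO and 30.1 in WT. Atp5k, a small subunit at the dimer interface, had the lowest difference at -0.83, with 2.83 FPKM in KO and 5.79 in WT, but only 47 and 93 reads stood behind it. The 3 genes Atp5g1, Atp5g2 and Atp5g3 encode the same mature c subunit of the proton-carrying ring. Atp5g3 was the most abundant of them, at 34.7 FPKM in KO and 47.3 in WT. Atp5g1 had 4.98 in KO and 5.15 in WT, and Atp5g2 had 1.84 in KO and 2.47 in WT. Atp5g2 has 2 pseudogenes identical over 100% of its transcript, and Atp5g1 has 1 near-identical pseudogene. The levels of both genes, and their rank beside Atp5g3, are uncertain in both pairs for that reason. Atp5c1, Atp5h, Atp5k, Atp5l and Atp5o, also among the 14, have near-identical copies elsewhere in the genome as well, so their levels are uncertain too.

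In this pair several ATP synthase pseudogenes had rows of their own, some far above their parent gene. Atp5k-ps2 had 84.1 FPKM in KO and 115.5 in WT, against the 2.83 and 5.79 of Atp5k. Atp5l-ps1 had 12.8 in KO and 27.5 in WT and Atp5l2-ps had 23.1 in KO and 44.2 in WT, whereas Atp5l, a subunit that helps the enzyme dimerise, had 2.53 in KO and 4.79 in WT. Of other complexes, Uqcrh-ps1 was also above its parent gene, and Ndufab1-ps went the other way, at 61.8 in KO and 48.4 in WT. The levels of Atp5k, Atp5l and Uqcrh in the KO and WT pair are uncertain for that reason. The 13 nuclear members with a near-identical copy elsewhere in the genome were all below 0 (median -0.35), and the 73 without such a copy had a median of -0.19.

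The assembly factors, which build the complexes and do not stay in them, held 4 of the 6 genes at least 2-fold apart. These were 4 of 11 factors, a share near the 29.3% of all measured genes, and nothing particular to the factors is read from it. Ndufaf1, which is needed for an early step of complex I assembly, was listed at 0 in KO and had 11.8 FPKM in WT, from 464 reads. Ndufaf6, also a complex I factor, had 0.840 FPKM in KO and 7.51 in WT, from 28 reads in KO and 242 in WT. Both were lower in KO, while 2 factors were higher. Sdhaf3, which helps place iron-sulfur clusters in Sdhb, had 3.21 FPKM in KO and 0.451 in WT, an FPKM ratio of 7.10 (5.41 to 9.46) from 441 reads in KO and 60 in WT. Ndufaf3 had 12.3 in KO and 4.73 in WT, a ratio of 2.59 (2.22 to 3.04). Of these 4 genes, 3 were measured in the CD93 pair and none was at least 2-fold apart there. Ndufaf1 had 7.28 FPKM in CD93-positive and 7.18 in CD93-negative cells, and Ndufaf6 had 2.63 in CD93-positive and 2.61 in CD93-negative cells.

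All 12 mitochondrially encoded genes were lower in KO than in WT, by 0.01 to 0.64 on the log2 scale. They held 3.14% of the recovered reads in KO (95% exact binomial interval 3.13 to 3.15) and 3.53% in WT (3.52 to 3.54). These shares and intervals leave out the genes without recovered reads, whose part differed between the libraries. Of the FPKM sum, the 12 genes made up 4.65% in KO and 5.09% in WT. The most abundant was mt-Cytb, the cytochrome b of complex III, at 12278 FPKM in KO and 13700 in WT. mt-Atp6, the proton channel of complex V, had 6265 in KO and 8816 in WT. mt-Co1, the catalytic subunit of complex IV, had 1497 in KO and 1767 in WT. The other complex IV genes were lower still relative to WT: mt-Co2 had 459.6 in KO and 641 in WT, and mt-Co3 had 763 in KO and 1187 in WT. Among the complex I genes, mt-Nd1 had 994 in KO and 1428 in WT, mt-Nd2 had 492 in KO and 559 in WT, and mt-Nd4 had 540.4 in KO and 686 in WT. mt-Nd5 had 223 in KO and 270.1 in WT. mt-Nd6, the 1 gene of the 12 that is read from the other strand, was nearly level, at 144 in KO and 145 in WT.

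The 5 mitochondrial genes with near-complete nuclear copies were further below WT than the rest. Their median difference was -0.49, against -0.24 for the other 7. mt-Nd3 had 16.9 FPKM in KO and 26.4 in WT, and mt-Nd4l had 51 in KO and 68.7 in WT. Without these 5 genes the median of the mitochondrially encoded genes was thus -0.24. The mitochondrial ribosomal RNAs, which are outside the rule, were lower in KO as well: mt-Rnr1 had 728 FPKM in KO and 1137 in WT, and mt-Rnr2 had 544 in KO and 883 in WT.

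Markers of other cells moved in the same pair of libraries. All 10 exocrine pancreas markers were at least 2-fold higher in KO, with a summed level of 1027 FPKM in KO and 7.39 in WT, and 7 of them (Cpa1, Cela2a, Cela1, Pnlip, Cpb1, Cel and Ctrl) were listed at 0 in WT. Of 10 T cell markers, 6 were at least 2-fold higher in KO (sum 1280.5 in KO and 887 in WT), and of 6 measured B and plasma cell markers 3 were (sum 4666 in KO and 2836 in WT, with 1 marker listed at 0 in WT). Intestinal epithelium markers summed to 178 in KO and 51.9 in WT, of which Lyz1 made up 141 in KO and 42.2 in WT. Krt8, Krt18 and Tff3 were also higher in KO, while Epcam, Fabp1 and Cdh1 were lower, with Cdh1 at 0 in KO. The 3 myeloid markers summed to 59.1 in KO and 11.8 in WT. Fibroblast and smooth muscle markers summed to 0.379 in KO and 3.35 in WT, with Lum at 0 in KO. The ILC3 markers summed to 12848 in KO and 17158 in WT, mostly Il22. The part of these differences in the lower respiratory chain values was not tested.

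**Figure D2:**
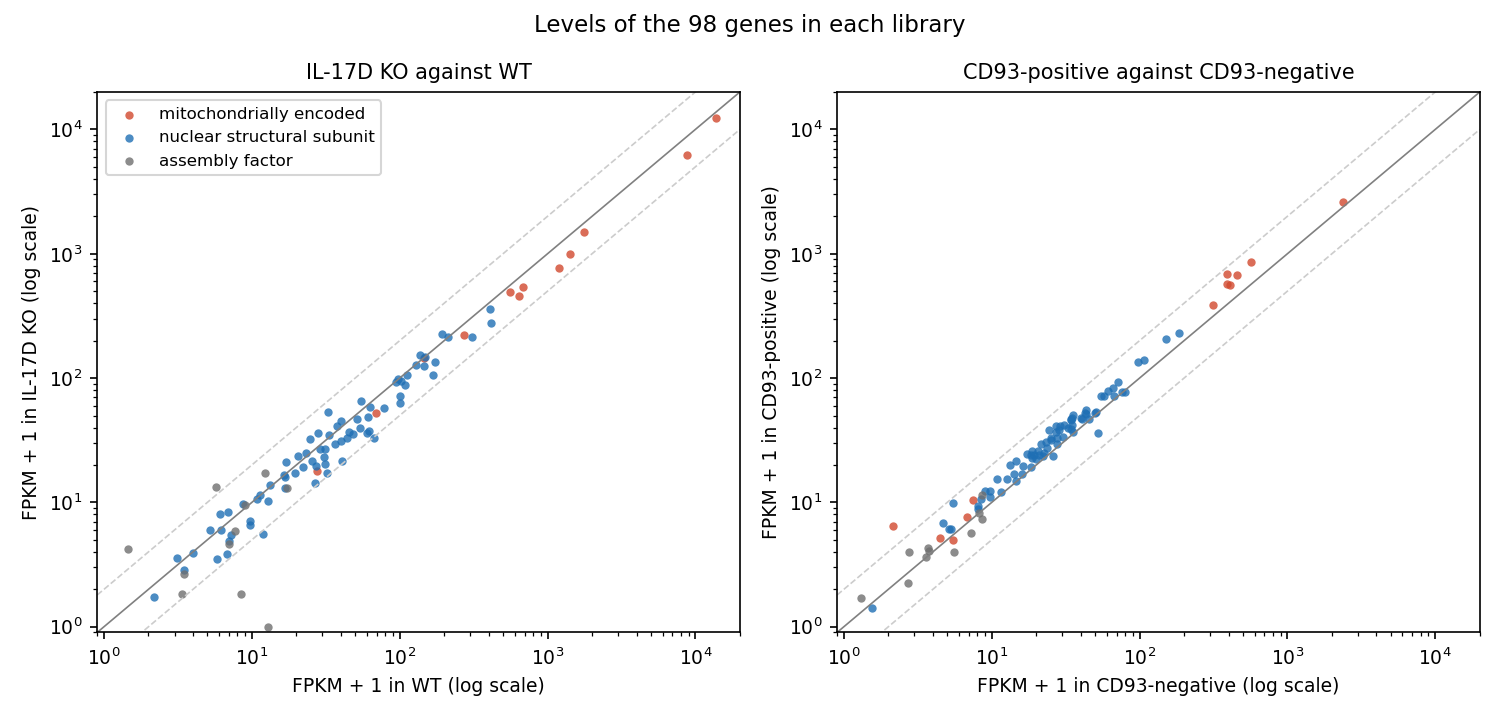
FPKM + 1 of the 98 genes in IL-17D KO against WT on the left and in CD93-positive against CD93-negative cells on the right, both axes on a log scale. Each point is 1 gene, coloured by group, the solid line marks equal levels and the dashed lines 2-fold of FPKM + 1. On the left 4 points lie beyond the lower dashed line and 2 beyond the upper one, and on the right 1 mitochondrial gene at a low level lies beyond the upper one.

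In CD93-positive ILC3s nearly all genes of the module were above their level in CD93-negative cells, by small amounts. The difference was above 0 for 88 of 96 measured genes, against 54.4% of all 10117 measured genes, and above the median of all genes for 84 of 96. The median was 0.31 for the 74 measured nuclear structural subunits and 0.47 for the 12 mitochondrially encoded genes. The 12 and the 96 include 5 mitochondrial genes, mt-Nd4l among them, whose levels in this pair are not read as expression, as described below. The other 7 mitochondrial genes had a median of 0.55. Of the 96 genes, 8 were below 0 (45.6% of all genes), and 1 was at least 2-fold apart, against 4.43% of all measured genes. It was higher, as were 2.49% of all genes, while 1.94% of all genes and none of the 96 were at least 2-fold lower. This gene was mt-Nd4l, which rested on 19 reads in CD93-positive and 4 in CD93-negative cells. Sdhaf3 and the complex I subunit Ndufb2 were under 1 FPKM in both libraries and are not counted.

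The nuclear subunits had median differences of 0.27 in complex I, 0.32 in complex II, 0.26 in complex III, 0.33 in complex IV and 0.40 in complex V. Those above 0 were 34 of 35 measured subunits in complex I, 4 of 4 in complex II, 8 of 8 in complex III, 11 of 13 in complex IV and 14 of 14 in complex V. Scaling to a common sum lowered these medians to between 0.08 and 0.23. Relative to the median of all genes they lay between 0.20 and 0.39 over 8 settings of pseudocount, FPKM minimum and scaling. The assembly factors were near the level of all genes. Their median was 0.01 with 6 of 10 above 0, and it turned to -0.13 with a common sum.

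In complex I the median was 0.22 for the core and 0.27 for the accessory subunits. Ndufa11, a membrane-arm subunit that faces complex III in the supercomplex and whose promoter is shown above, had the highest difference at 0.58, with 18.8 FPKM in CD93-positive and 12.3 in CD93-negative cells. Its FPKM ratio was 1.54 (1.25 to 1.89). Ndufa5, an accessory subunit of the hydrophilic arm, had 20.4 in CD93-positive and 13.6 in CD93-negative cells. Ndufa2 was again the most abundant, at 77.5 FPKM in CD93-positive and 60.1 in CD93-negative cells. Ndufs7 was the 1 measured subunit of complex I below 0, at 22.4 FPKM in CD93-positive and 24.8 in CD93-negative cells. Its interval for the FPKM ratio, 0.795 to 1.03, included 1.

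In complex II, Sdhb had 31.9 FPKM in CD93-positive and 24.1 in CD93-negative cells, Sdhc had 21.9 and Sdhd 54.4 in CD93-positive, against 17.7 and 42.7 in CD93-negative cells. Sdha was level, at 45.5 in CD93-positive and 44.8 in CD93-negative cells. In complex III the small subunits Uqcr11 and Uqcrq stood out. Uqcr11 had 37.0 FPKM in CD93-positive and 23.4 in CD93-negative cells, a ratio of 1.58 (1.30 to 1.92). Uqcrq had 40.0 in CD93-positive and 26.1 in CD93-negative cells. Uqcrh, the lowest of the complex in this pair with a difference of 0.07, was the most abundant, at 52.1 in CD93-positive and 49.6 in CD93-negative cells. Cyc1, outside the rule, had 51.8 FPKM in CD93-positive and 39.5 in CD93-negative cells.

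Complex IV held both the highest and the lowest nuclear gene of the pair. Cox7a1, the heart and muscle isoform, had 8.94 FPKM in CD93-positive and 4.44 in CD93-negative cells, a ratio of 2.01 with a wide interval of 1.26 to 3.29, from 56 reads in CD93-positive and 28 in CD93-negative cells. It stayed under 2-fold in FPKM + 1. Cox7a2, the widely expressed isoform, had 41.0 in CD93-positive and 29.7 in CD93-negative cells. Cox7a2l, the supercomplex factor, was lower, at 34.9 FPKM in CD93-positive and 51.7 in CD93-negative cells. Its difference was -0.55, and the FPKM ratio of CD93-negative over CD93-positive was 1.48 (1.33 to 1.64), from 605 reads in CD93-positive and 901 in CD93-negative cells. The 3 related genes thus differed in direction within these libraries. The most abundant subunits were Cox8a, at 231 FPKM in CD93-positive and 184 in CD93-negative cells, and Cox6a1, at 206 in CD93-positive and 150.2 in CD93-negative cells. Both were higher in the CD93-positive library. Cox4i1 was nearly level, at 76.8 in CD93-positive and 74.5 in CD93-negative cells, as was Cox7c, at 75.9 in CD93-positive and 78.1 in CD93-negative cells. Cox6b1 had 91.4 in CD93-positive and 70.4 in CD93-negative cells, and Ndufa4 had 35.6 in CD93-positive and 26.2 in CD93-negative cells.

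Complex V was higher in CD93-positive ILC3s in each of its 14 nuclear genes, by 0.18 to 0.54 on the log2 scale. The 5 genes of the catalytic head had a median of 0.38 and the 9 of the membrane part and stalk 0.41. Atp5a1 was the most abundant, at 138 FPKM in CD93-positive and 105 in CD93-negative cells. Atp5b had 133 in CD93-positive and 96.1 in CD93-negative cells, a ratio of 1.38 (1.33 to 1.44) from 6599 reads in CD93-positive and 4799 in CD93-negative cells. It had the most reads of the nuclear members in this pair. The 3 c-subunit genes were higher together. Atp5g1 had 5.86 FPKM in CD93-positive and 3.71 in CD93-negative cells. Atp5g2 had 37.1 in CD93-positive and 27.6 in CD93-negative cells. Atp5g3 had 49.9 in CD93-positive and 34.6 in CD93-negative cells. Atp5l had the lowest difference of the complex, at 10.02 FPKM in CD93-positive and 8.73 in CD93-negative cells.

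The mitochondrially encoded genes of the CD93 pair fell into separate blocks, which the plot along the mitochondrial genome shows. The 5 genes with near-complete nuclear copies (mt-Co2, mt-Atp6, mt-Co3, mt-Nd3 and mt-Nd4l) had 1.14 to 9.36 FPKM over both libraries. The other 7 had 384 to 2630 FPKM in CD93-positive and 313 to 2395 in CD93-negative cells. In the KO and WT pair the same 5 genes had 16.9 to 6265 FPKM in KO and 26.4 to 8816 in WT, so their near-absence was seen in 1 of the 2 tables. Levels of these 5 genes in the CD93 pair are therefore not read as their expression. All 12 genes together held 0.839% of the recovered reads in CD93-positive (0.834 to 0.844) and 0.718% in CD93-negative cells (0.713 to 0.723). Genes without recovered reads are again left out of these shares. Of the FPKM sum, the 12 genes made up 2.50% in CD93-positive and 2.17% in CD93-negative cells.

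**Figure D3:**
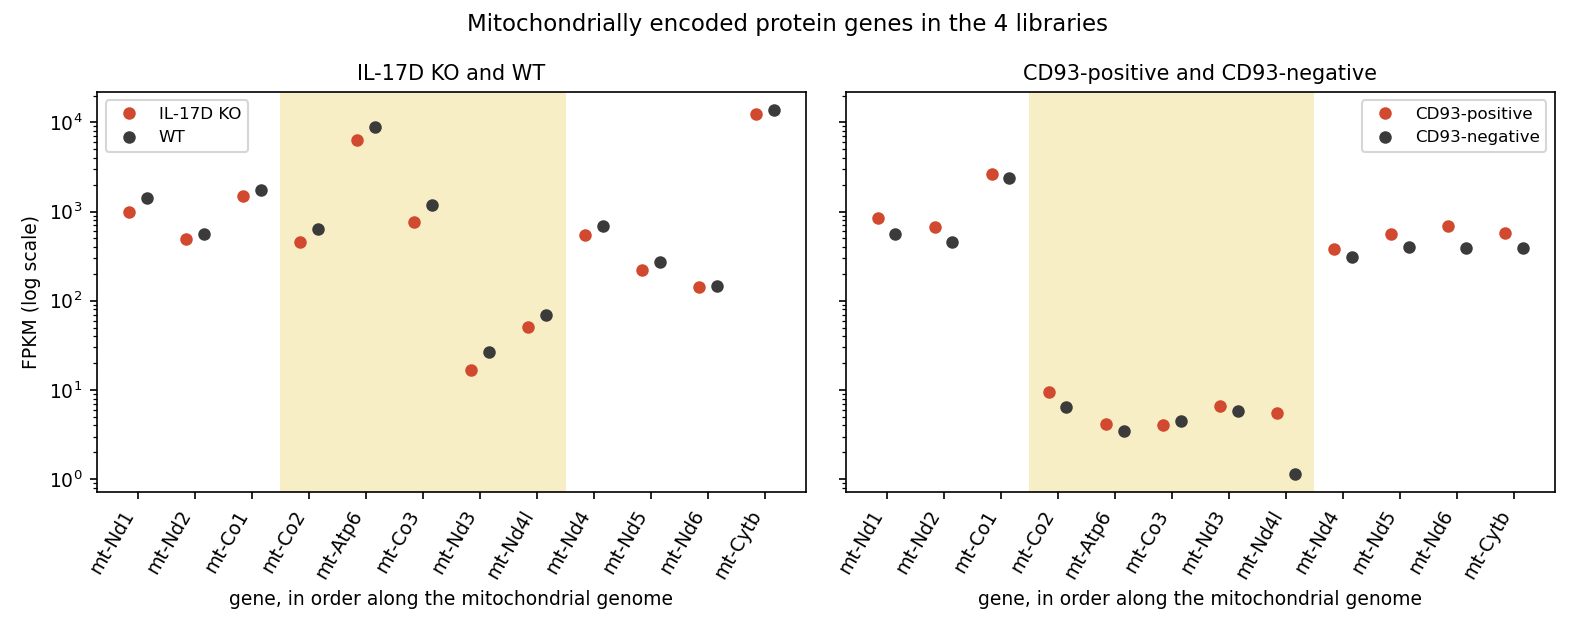
FPKM on a log scale of the 12 mitochondrially encoded protein genes, in their order along the mitochondrial genome, in IL-17D KO and WT on the left and in CD93-positive and CD93-negative cells on the right. Each point is 1 library and the shading marks the 5 genes of which more than 95% of windows occur in another gene. The shaded genes lie between 1.14 and 9.36 FPKM in the CD93 pair, whereas the other 7 lie at 313 FPKM or more.

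The 7 mitochondrial genes at high levels were all higher in CD93-positive ILC3s, with a median difference of 0.55. mt-Nd6 had the largest difference of them, at 688 FPKM in CD93-positive and 389 in CD93-negative cells, a ratio of 1.77 (1.68 to 1.86). It was the same gene that was level between KO and WT. mt-Nd1 had 856 in CD93-positive and 567 in CD93-negative cells, and mt-Nd2 had 679.9 and mt-Nd5 had 563 in CD93-positive, against 456 and 405 in CD93-negative cells. mt-Cytb had 571 in CD93-positive and 389 in CD93-negative cells. mt-Nd4, part of which is shared with a nuclear copy, had 384 in CD93-positive and 313 in CD93-negative cells. mt-Co1 was the most abundant and had the smallest difference of the 7, at 2630 in CD93-positive and 2395 in CD93-negative cells, a ratio of 1.10 (1.08 to 1.11).

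Of the markers of other cells in this pair, all 10 exocrine pancreas markers were below 0, with a sum of 386 FPKM in CD93-positive and 608 in CD93-negative cells and none at 0. Intestinal epithelium markers summed to 24.0 in CD93-positive and 43.2 in CD93-negative cells, the 5 T cell markers to 2.74 and the 1 B cell marker to 2.27 in CD93-positive, against 9.94 and 4.98 in CD93-negative cells. The 6 myeloid markers summed to 31.5 in CD93-positive and 22.9 in CD93-negative cells. Fibroblast and smooth muscle markers summed to 12.5 in CD93-positive and 5.22 in CD93-negative cells. Lum alone made up 11.3 in CD93-positive and 3.95 in CD93-negative cells, whereas Col1a1, Col1a2, Col3a1, Dcn and Myh11 were lower in CD93-positive cells, all at 0.218 FPKM or less in both. The ILC3 markers summed to 9269 in CD93-positive and 2560.3 in CD93-negative cells, of which Il22 made up 7934 in CD93-positive and 1655 in CD93-negative cells. Their part in the higher respiratory chain values was not tested.

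**Figure D4:**
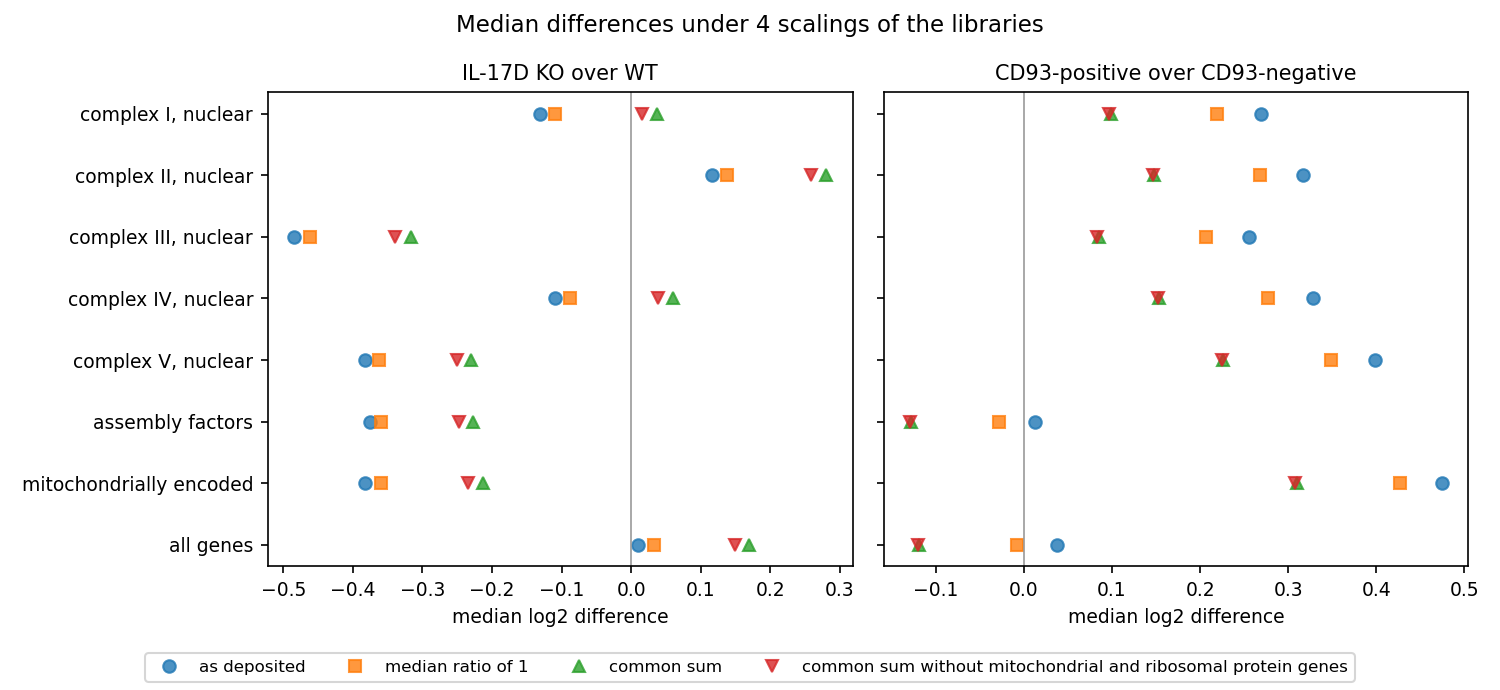
Median log2 difference of each group of genes and of all measured genes under 4 scalings of the libraries, with IL-17D KO over WT on the left and CD93-positive over CD93-negative on the right. Each symbol is 1 scaling. A common sum moves all medians right by about the same amount in KO over WT and left in CD93-positive over CD93-negative, so the distance of each group from all genes changes little, while complexes I and IV in the left panel and the assembly factors in the right panel cross 0.

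The choice of scaling mattered because the FPKM sums differed within pairs, at 510427 in KO and 575053 in WT, and at 256540 in CD93-positive and 227212 in CD93-negative cells. Scaling to a common sum moved the median of all genes by 0.16 in KO over WT and by -0.16 in CD93-positive over CD93-negative. Medians relative to all genes were taken over 8 settings of pseudocount, FPKM minimum and scaling. The nuclear structural subunits lay between -0.22 and -0.17 in KO over WT and between 0.23 and 0.29 in CD93-positive over CD93-negative. The mitochondrially encoded genes lay between -0.40 and -0.35 and between 0.37 and 0.47. Their range in the CD93 pair includes the genes with near-complete nuclear copies, whose levels there are not read as expression. Other subsets of the genes are not in these ranges. Without the 5 genes with nuclear copies the mitochondrial medians were -0.24 and 0.55. With at least 1000 recovered reads the nuclear median in KO over WT was -0.31. The medians of all genes were 0.01 in KO over WT and 0.04 in the CD93 pair.

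Short genes differed from long ones in both pairs, and respiratory chain subunits are mostly short. Their coding lengths ran from 156 to 2181 bases with a median of 423. In KO over WT the 38 subunits up to the median length had a median difference of -0.35 and the 37 longer ones -0.19. All measured genes of the same range of lengths showed a step of the same sign, at -0.19 for the short and 0.05 for the long ones. In CD93-positive over CD93-negative the short subunits had a median of 0.36 and the long ones 0.28, beside 0.14 and 0.05 for all genes. In both length classes the subunits lay further from 0 than all genes of that length in these libraries. The part of length in the differences was not tested.

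Set side by side, 67 of the 96 genes measured in both pairs were lower in KO than in WT and higher in CD93-positive than in CD93-negative cells. A further 21 were higher in both comparisons, 5 were lower in both and 3 were higher in KO and lower in CD93-positive ILC3s. These counts are read as no relation between the comparisons, since 73 of 98 genes were below 0 in the first and 88 of 96 above 0 in the second. Across the 96 genes, which are not independent replicates, Pearson's r of the differences was 0.089 and Spearman's rho 0.081. Those lower in KO and higher in CD93-positive cells included Atp5b, Uqcrb, Cox7b and mt-Nd1. Those higher in both included Sdhb, Ndufs1 and Uqcr11. Ndufs7 was one of the 3 that were higher in KO and lower in CD93-positive ILC3s. The pairs share no library, but they were made with different gene sets and levels are not compared between them.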

How the data were processed

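RNA of 4 ILC3 libraries was sequenced on a BGISEQ-500, per the series' design text. The authors deposited FPKM per gene, as 1 table per library and 1 joint table per pair. The submitters' processing notes name the build mm10 and the tools Bowtie2, featureCounts, Subread, edgeR and DESeq2; they give no roles, versions or annotation. The joint tables held 15242 and 12546 rows with different gene names, so values were compared only within a pair.

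FPKM times the union exon length in GENCODE M21 was checked for whole reads (tolerance 0.02 reads) where a name had 1 length there. It was whole for 92.1% of 10243 such values above 0 in KO and 91.9% of 10319 in WT. The shares were 98.1% of 12343 in CD93-positive and 98.2% of 12397 in CD93-negative cells. Over all rows, reads were recovered for 10167 of 15242 in the KO and WT pair and 12169 of 12546 in the CD93 pair. Reads were whole in both libraries for 84 of the 98 genes in the KO and WT pair and for 97 in the CD93 pair, and ratios without an interval have no such reads. Intervals are 95% exact binomial; without molecular identifiers they cover counting error only. The deposited FPKM remain the main values, with a pseudocount of 1, and no count model was fitted, since each group had 1 library. Near-identical copies were found with blastn 2.17.0 (identity of at least 95% over at least 50% of the transcript), and 50-base windows were matched exactly against all annotated transcripts. Python 3.11.15, numpy 2.4.6, pandas 2.3.3, scipy 1.17.1 and matplotlib 3.10.9 were used, and the recovery of reads was tested on simulated data.

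Genes were named by rule: in each group the most abundant, the highest and lowest differences, all at least 2-fold apart, isoform pairs and all mitochondrially encoded genes. Some others are named beside them as examples of a subunit's role and were chosen after their values were seen. The members and all lists were chosen with earlier results of these data known. Alternatives were other pseudocounts, FPKM minimums, scalings, fold limits and gene subsets. A few named items are not reported here.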

Additional observations from a re-analysis of the deposited data

How the results depend on the processing

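No median changed sign under the alternatives tried for the 75 nuclear structural subunits or the 12 mitochondrially encoded genes as a whole. In KO over WT, scaling to a common sum brought the nuclear median to -0.036 and the mitochondrial one to -0.21, or to -0.23 when mitochondrial and ribosomal protein genes were left out of the sum; the median of all genes moved to 0.17 and 0.15 with it. Leaving out the 5 mitochondrial genes with nuclear copies gave -0.24. With a pseudocount of 5, the genes at least 2-fold apart numbered 2 in KO over WT and 0 in CD93-positive over CD93-negative (1 library per group, no test). With a 1.5-fold limit they numbered 21 (3 higher and 18 lower) and 6 (all higher). The shares of all genes under these settings are not given, so the counts are not read as a result about the module. In the CD93 pair the nuclear median ran from 0.14 to 0.32 and the mitochondrial one from 0.31 to 0.51 over 8 settings, and the mitochondrial one was 0.55 without the genes with copies. Asking for at least 1000 reads over the pair gave a nuclear median of -0.31 in KO over WT and 0.28 in CD93-positive over CD93-negative. This setting and the one that left out the 5 mitochondrial genes with nuclear copies were chosen after seeing the data. No paired analysis was possible because each group had 1 library, and for the same reason no replicate could be left out. Depth limits the assembly factors and the low mitochondrial genes of the CD93 pair, mt-Nd4l above all, with 19 reads in CD93-positive and 4 in CD93-negative cells. The part of the other cells' markers in either comparison was not tested.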

Other observations

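Genes that act around the respiratory chain gave mixed values in KO and WT. The lists of these genes were chosen with earlier results known, and the counts are descriptions of 1 library per group. In KO over WT, the 18 genes of the TCA cycle and pyruvate dehydrogenase, which feed the chain with NADH and succinate, had a median difference of 0.11 with 10 above 0. Mdh2, the mitochondrial malate dehydrogenase, had 88.9 FPKM in KO and 63.7 in WT. Idh2, the NADP-dependent isocitrate dehydrogenase, had 5.51 in KO and 2.31 in WT. Dlat, a pyruvate dehydrogenase subunit, was the 1 gene of the list at least 2-fold apart, at 0.00758 FPKM in KO and 2.32 in WT. The ADP/ATP carriers were unlike: Slc25a5 had 255 FPKM in KO and 194 in WT, whereas Slc25a4 had 5.43 in KO and 16.6 in WT. Cycs, the cytochrome c gene, had 22.6 in KO and 31.2 in WT.

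Among assembly factors outside the rule, 1 of 23 measured factors for complexes II to V was at least 2-fold higher in KO, against 16.6% of all measured genes, and 3 were at least 2-fold lower, against 12.7%. Uqcc1, a complex III factor, had 5.68 FPKM in KO and 1.40 in WT. Uqcc3, also a complex III factor, had 14.1 in KO and 38.7 in WT, and Bcs1l, which inserts the Rieske protein, had 0.980 in KO and 5.65 in WT. Cox18, a complex IV factor, was listed at 0 in KO and had 1.202 in WT. Of 8 measured complex I factors, Acad9 was the 1 at least 2-fold apart, with 0.371 in KO and 2.01 in WT. Of 17 measured genes of mitochondrial transcription and biogenesis, Lrpprc and Tefm were at least 2-fold higher in KO and Mterf3 and Mterf4 at least 2-fold lower. None of these lists held a larger share of genes at least 2-fold apart than the 29.3% of all measured genes. Lrpprc, which stabilises mitochondrial messenger RNAs, had 2.70 FPKM in KO and 0.672 in WT, and Tefm, the mitochondrial elongation factor, had 10.1 in KO and 2.81 in WT.

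In CD93-positive over CD93-negative cells the surrounding lists differed in how many genes were above 0, against 54.4% of all measured genes with a median of 0.04. The complex I assembly factors outside the rule had 5 of 10 above 0 and a median of 0.05, those of complexes II to V had 18 of 26 and 0.16, and the transcription and biogenesis genes had 12 of 18 and 0.12. The TCA cycle list had a median of 0.22 with 16 of 18 above 0, and the carriers and channels that exchange metabolites and proteins had 0.39 with 9 of 10 above 0. Cs, the citrate synthase, had 28.1 FPKM in CD93-positive and 19.0 in CD93-negative cells. Slc25a4 had 12.7 in CD93-positive and 7.03 in CD93-negative cells. Idh2 was the lowest of its list, at 0.561 in CD93-positive and 1.74 in CD93-negative cells. Peroxide and superoxide defence genes had a median of 0.35 with 8 of 9 above 0, and Prdx5, a peroxiredoxin, had 139.7 in CD93-positive and 85.6 in CD93-negative cells. Pprc1, a coactivator of respiratory genes related to PGC-1, had 9.80 in CD93-positive and 5.43 in CD93-negative cells, whereas Tfam, which packages mitochondrial DNA, had 9.25 in CD93-positive and 8.47 in CD93-negative cells.

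Names that met the rule in 1 table only are not counted above. In the KO and WT table, mt-Atp8, a small subunit of complex V, had 2327 FPKM in KO and 3426 in WT. Atp5f1, the stalk subunit b, had 8.65 in KO and 6.99 in WT. Atp5sl, an older name of Dmac2, had 2.29 in KO and 2.84 in WT, and Atp5s was listed at 0 in KO and had 2.93 in WT. In the CD93 table, Atp5pb, the newer name of Atp5f1, had 32.0 in CD93-positive and 22.8 in CD93-negative cells. The stalk subunit b thus had a row in both tables, under different names. Atp5mpl had 29.96 in CD93-positive and 21.3 in CD93-negative cells, and Atp5md had 17.2 in CD93-positive and 15.1 in CD93-negative cells. Ndufaf8 had 15.05 in CD93-positive and 12.5 in CD93-negative cells, Cox6b2 had 1.23 in CD93-positive and 1.30 in CD93-negative cells, and Ndufb4c had 1.53 in CD93-positive and 1.09 in CD93-negative cells.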
